A study of Mus musculus with 24 samples.

Results

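The 7 MHC class II genes H2-Aa, H2-Ab1, H2-Eb1, Cd74, Ciita, H2-DMa and H2-DMb1 were followed in the parietal cortex of mice after stroke. They were chosen by name, and each matched 1 of the 46983 gene identifiers in the deposited count tables. The cortex came from C57BL/6 mice in 4 groups of 6 animals: MCAO at 18 months of age, MCAO at 3 months, control at 18 months and control at 3 months. In MCAO the middle cerebral artery was closed for good by coagulating and cutting it under isoflurane, and the tissue was collected 3 days later. Per the labels it leaves small infarcts in the parietal cortex. The controls were intact animals without surgery, so anaesthesia and operation are part of every difference between MCAO and control. The labels name no transgene, batch or sex. Each library came from 1 animal and was prepared with a QuantSeq kit, which reads the 3′ end of polyadenylated transcripts. Levels are given as counts scaled to a common library size (CPM) and are compared between groups, not between genes.

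MHC class II molecules are pairs of an α and a β chain that show peptides from engulfed protein to CD4+ T cells. The invariant chain, encoded by Cd74, fills the groove of a new molecule and steers it to the endosome, where proteases trim it and the H2-DM pair exchanges its last fragment for a peptide. The genes are switched on by CIITA, a co-activator that binds no DNA itself and docks on the factors RFX, CREB and NF-Y at the promoter. Interferon gamma induces Ciita, in part through IRF1. In healthy brain, class II protein is found mainly on macrophages of the meninges and vessels and is scarce on microglia, which can acquire it after injury.

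The promoters of class II genes share an X box, bound by RFX, and a Y box, bound by NF-Y, at a near-constant distance. They are shown because the members below moved together. Of the 7 genes, 4 had an entry among the RefSeq promoters of GRCm38.p6, with 5 windows of 250 bases before and 50 after a start site. The letters AGNAAC were searched for the X box core and ATTGG for the Y box core on both strands. The H2-Aa window held no AGNAAC, so the X box core was then shortened to GNAAC. The 130 bases before the start are printed 5′ to 3′ on the gene's own strand, with the capitals marking GNAAC followed by ATTGG. They lie at chr17:34287824-34287953 (minus strand) for H2-Aa, chr17:34305737-34305866 (plus strand) for H2-Eb1 and chr17:34153061-34153190 (plus strand) for H2-DMb1.
H2-Aa: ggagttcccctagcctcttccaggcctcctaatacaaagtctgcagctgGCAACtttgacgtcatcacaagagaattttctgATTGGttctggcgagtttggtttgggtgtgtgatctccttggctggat
H2-Eb1: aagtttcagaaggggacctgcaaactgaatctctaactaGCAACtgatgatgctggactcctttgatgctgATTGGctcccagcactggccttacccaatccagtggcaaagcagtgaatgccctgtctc
H2-DMb1: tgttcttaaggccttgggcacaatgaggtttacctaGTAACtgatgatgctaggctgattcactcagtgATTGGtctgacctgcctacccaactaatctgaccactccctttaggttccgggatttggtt

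The first letters of both cores lay 33 bases apart in H2-Aa, 32 in H2-Eb1 and 33 in H2-DMb1. A pair of GNAAC and ATTGG 29 to 37 bases apart occurred in 1.54% of all 32851 promoter windows, and the pair with the longer AGNAAC, 30 to 38 apart, in 0.475%. The windows of H2-Eb1 and H2-DMb1 held the pair with the longer core too. Singly, AGNAAC was present in 48.1% and ATTGG in 37.4% of windows. Neither of the windows of H2-DMa held a pair. A match is a run of letters, and binding was not measured. H2-Ab1, Cd74 and Ciita were not among the entries.

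In the GENCODE M21 annotation of GRCm38, 5 of the genes lie within the MHC on chromosome 17. These are H2-DMa (34119541 to 34139101, plus strand), H2-DMb1 (34153072 to 34160230, plus), H2-Ab1 (34257689 to 34269419, plus), H2-Aa (34282744 to 34287823, minus) and H2-Eb1 (34305867 to 34316674, plus). Cd74 lies on chromosome 18 (60803848 to 60812652, plus) and Ciita on chromosome 16 (10480059 to 10528418, plus). All 7 are protein-coding. H2-DMa overlaps Brd2 on the other strand, Ciita overlaps Dexi on the other strand, and H2-Eb1 overlaps the antisense gene Gm20513, which had no count in any library. Whether the authors' counting used strand is not given in the sources used here. Reads of H2-DMa and Brd2, or of Ciita and Dexi, may therefore not be fully separable. In the 3-month controls Dexi had 156 to 191 CPM, whereas Ciita had no count there.

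Gene counts per library ran from 3.30 M to 13.1 M (mega-counts) with a median of 5.15 M. Library A of MCAO at 3 months was the deepest. The tissue carried neuronal markers, which summed to 3661 to 6187 and 5209 to 6793 CPM after MCAO at 18 and 3 months, against 8468 to 10839 and 9026 to 9726 CPM in controls. Of 8 neuronal markers, 7 fell at 18 months and 5 at 3 months, beside 21.5% and 17.3% of all genes tested. The part of this shift in the class II change was not tested. Haemoglobin and other erythrocyte transcripts reached 1279 CPM in library F of MCAO at 18 months and choroid plexus transcripts 2490 CPM in library C of MCAO at 3 months.

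Class II transcripts were scarce in intact cortex and several-fold higher 3 days after MCAO at both ages. The 7 genes together reached 69.4, 102 and 194 CPM (lowest, median and highest library) after MCAO at 18 months and 29.8, 63.7 and 136 CPM after MCAO at 3 months. In controls they came to 12.8, 16.1 and 22.8 CPM at 18 months and 8.44, 12.8 and 13.7 CPM at 3 months. Every MCAO library thus lay above every control library of its age in the sum. The mean was 111 ± 44.5 CPM after MCAO at 18 months and 73.2 ± 39.7 CPM after MCAO at 3 months, against 17.3 ± 4.40 CPM and 12.1 ± 1.97 CPM in controls of 18 and 3 months (SD, n = 6 each). In bulk tissue, more cells that carry these transcripts and more RNA per cell cannot be told apart.

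**Figure D1:**
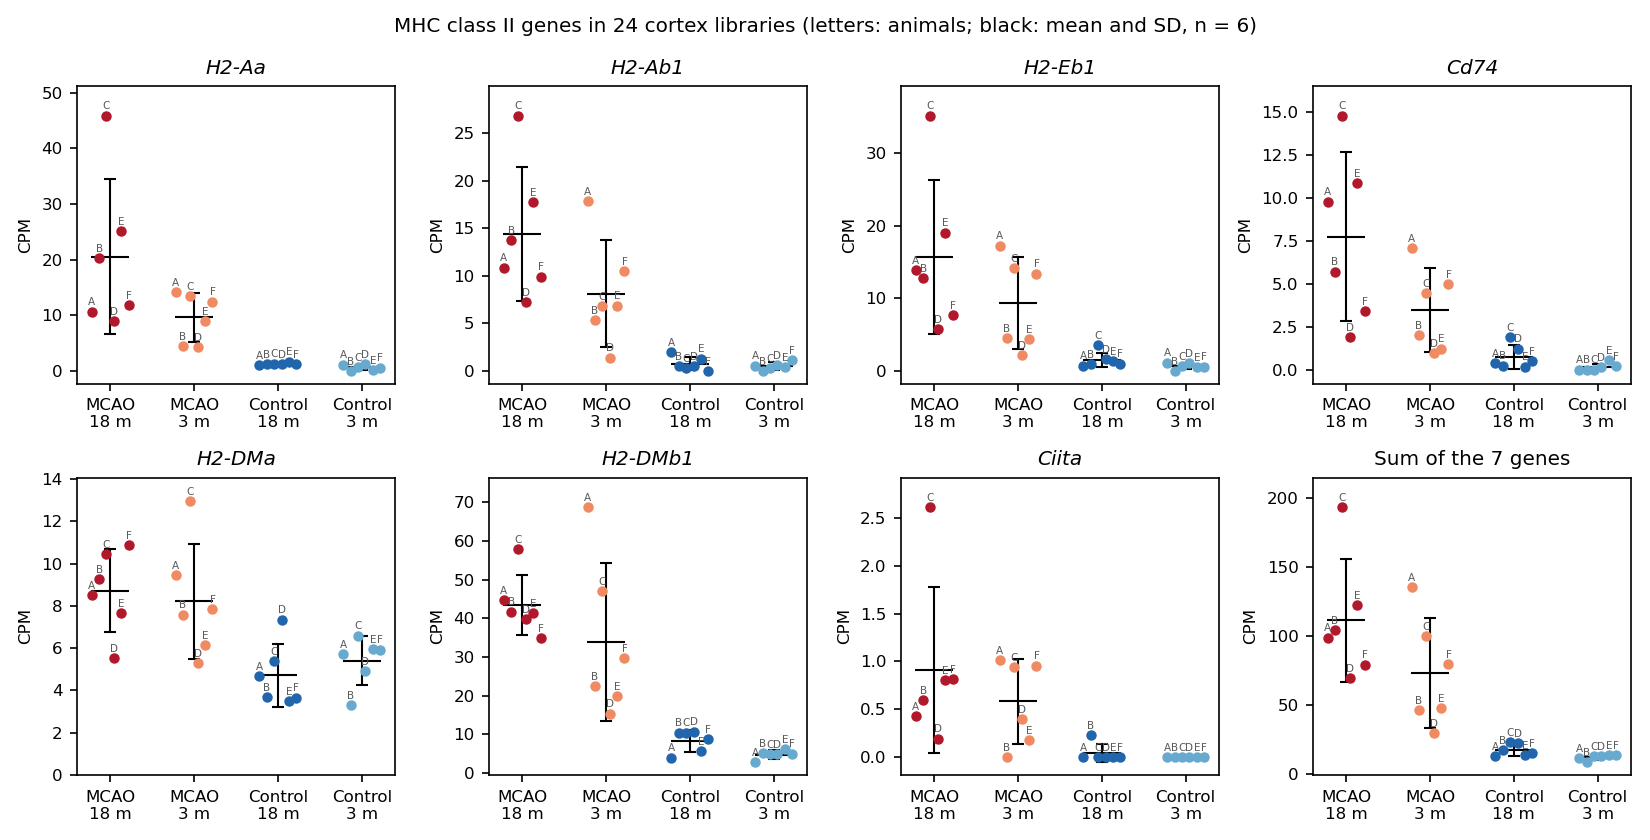
CPM of each class II gene and of their sum in the 24 libraries, with 1 point per animal (letters A to F) and the mean ± SD of each group in black. The sum runs from 69.4 to 194 CPM after MCAO at 18 months and from 29.8 to 136 CPM after MCAO at 3 months, above all controls, whose highest value is 22.8 CPM.

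Of the 7 genes, 6 passed the filter on low counts and were tested with edgeR's quasi-likelihood test. Ciita did not pass. All 6 were higher after MCAO than in controls at 18 months, where of all 14599 genes tested 45.2% were called, 23.7% higher and 21.5% lower. All 6 were also higher at 3 months, where 37.3% were called, 20.1% higher and 17.3% lower. Most of the 6 were so low in controls that they could pass the filter through the MCAO libraries alone, so the count is a description. Their median log2 fold change was 3.48 at 18 months and 3.77 at 3 months, beside -0.03 and -0.04 over all genes tested. For 5 of the 7 genes no MCAO library overlapped the controls of the same age, at both ages. Of all genes tested, 16% at 18 months and 11.1% at 3 months had every MCAO library above every control.

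H2-Aa, the α chain of the I-A molecule, which presents peptide in C57BL/6 mice, had 8.96, 16.1 and 45.9 CPM (lowest, median and highest library) after MCAO at 18 months, against 1.08, 1.22 and 1.66 CPM in controls of that age. At 3 months it had 4.32, 10.7 and 14.1 CPM after MCAO, against 0, 0.587 and 1.19 CPM in controls. The MCAO and control libraries were widely separated at both ages. The log2 fold change was 4.0 ± 0.45 at 18 months (SE, adjusted p = 5.4e-08) and 3.83 ± 0.51 at 3 months (adjusted p = 1.37e-06). In mean CPM this was 16.2-fold and 15.8-fold.

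H2-Ab1 encodes the β chain that pairs with H2-Aa. It had 7.24, 12.3 and 26.9 CPM after MCAO at 18 months, against 0, 0.494 and 1.98 CPM in controls, and rose by 4.09 ± 0.54 on the log2 scale (adjusted p = 6.94e-07). At 3 months it had 1.37, 6.84 and 17.9 CPM after MCAO, against 0, 0.456 and 1.15 CPM in controls, a log2 fold change of 3.92 ± 0.59 (adjusted p = 8.68e-06). Library D of MCAO at 3 months, with 7 counts, came close to the highest control. The other MCAO libraries lay well above it.

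H2-Eb1 encodes the β chain of the I-E molecule. In C57BL/6 mice the α chain of I-E is not made because its promoter is deleted, so this β chain lacks its usual partner. The transcript still rose, by 3.47 ± 0.53 on the log2 scale at 18 months (adjusted p = 7.44e-06) and 3.72 ± 0.60 at 3 months (adjusted p = 2.5e-05). Levels were 5.72, 13.3 and 35.2 CPM after MCAO at 18 months, against 0.719, 1.13 and 3.48 CPM in controls. At 3 months they were 2.16, 8.93 and 17.2 CPM after MCAO, against 0, 0.587 and 1.10 CPM in controls. The gene listed for the α chain, H2-Ea-ps, annotated as a polymorphic pseudogene, had no count in any of the 24 libraries, which allows at most 0.0225 CPM over their summed depth (a floor of 3 counts, counting error only).

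Cd74, the invariant chain, had 1.91, 7.76 and 14.8 CPM after MCAO at 18 months, against 0.184, 0.424 and 1.90 CPM in controls. After MCAO at 3 months it had 0.982, 3.24 and 7.10 CPM, against 0, 0.0746 and 0.541 CPM in controls. Its groups did not overlap, though at 18 months the lowest MCAO library (D, 10 counts) and the highest control (C, 6 counts) all but met. The log2 fold change was 3.48 ± 0.59 at 18 months (adjusted p = 2.4e-05) and 4.26 ± 0.78 at 3 months (adjusted p = 0.000106). The controls of 3 months held only 5 counts in all, and without their library E, which had 3 of them, the second value was 5.11.

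H2-DMa and H2-DMb1 encode the chains of H2-DM, the endosomal editor that loads peptide onto class II molecules. H2-DMb1 had 34.8, 41.6 and 57.8 CPM after MCAO at 18 months, against 3.96, 9.59 and 10.7 CPM in controls, and rose by 2.40 ± 0.30 on the log2 scale (adjusted p = 3.66e-07). At 3 months it had 15.3, 26.1 and 68.8 CPM after MCAO, against 2.76, 4.88 and 6.13 CPM in controls, a log2 fold change of 2.85 ± 0.32 (adjusted p = 1.12e-07). MCAO and control libraries were clearly apart. H2-DMb2 is a near-identical copy next to it, and alignments that were not unique stayed out of the counts, so the split between these copies is uncertain.

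The partner chain H2-DMa changed least. It had 5.53, 8.89 and 10.9 CPM after MCAO at 18 months, against 3.50, 4.19 and 7.35 CPM in controls, and 5.30, 7.72 and 12.95 CPM after MCAO at 3 months, against 3.32, 5.82 and 6.59 CPM in controls. The groups overlapped at both ages. The log2 fold change was 0.88 ± 0.23 at 18 months (adjusted p = 0.00235) and 0.60 ± 0.23 at 3 months (adjusted p = 0.0392). The call at 3 months was lost in 5 of the 24 fits that left out 1 library, where the adjusted p ran up to 0.132 without MCAO library C. Scaling the libraries by spike-in RNA gave 0.62 (adjusted p = 0.0822) at 18 months and 0.10 (adjusted p = 0.775) at 3 months.

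Ciita, the co-activator of the class II genes, was near the detection limit. It had 37 counts over the 6 libraries of MCAO at 18 months and 1 count in the controls of that age. At 3 months it had 25 counts after MCAO and none in controls, where a floor of 3 counts allows at most 0.0965 CPM. All 6 libraries of MCAO at 18 months and 5 of 6 at 3 months held at least 1 count. The mean was 0.907 ± 0.870 CPM after MCAO at 18 months against 0.0385 ± 0.0944 CPM in controls (n = 6 each, two-sided exact permutation p = 0.00433, adjusted over 4 comparisons 0.0173). After MCAO at 3 months the mean was 0.58 ± 0.447 CPM, against 0 in controls (exact permutation p = 0.0152, adjusted 0.0303). On pooled counts Ciita was 27.6-fold higher at 18 months (95% counting interval 4.65 to 1117) and at least 6.56-fold higher at 3 months, against the floor of 3 counts over the control group.

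**Figure D2:**
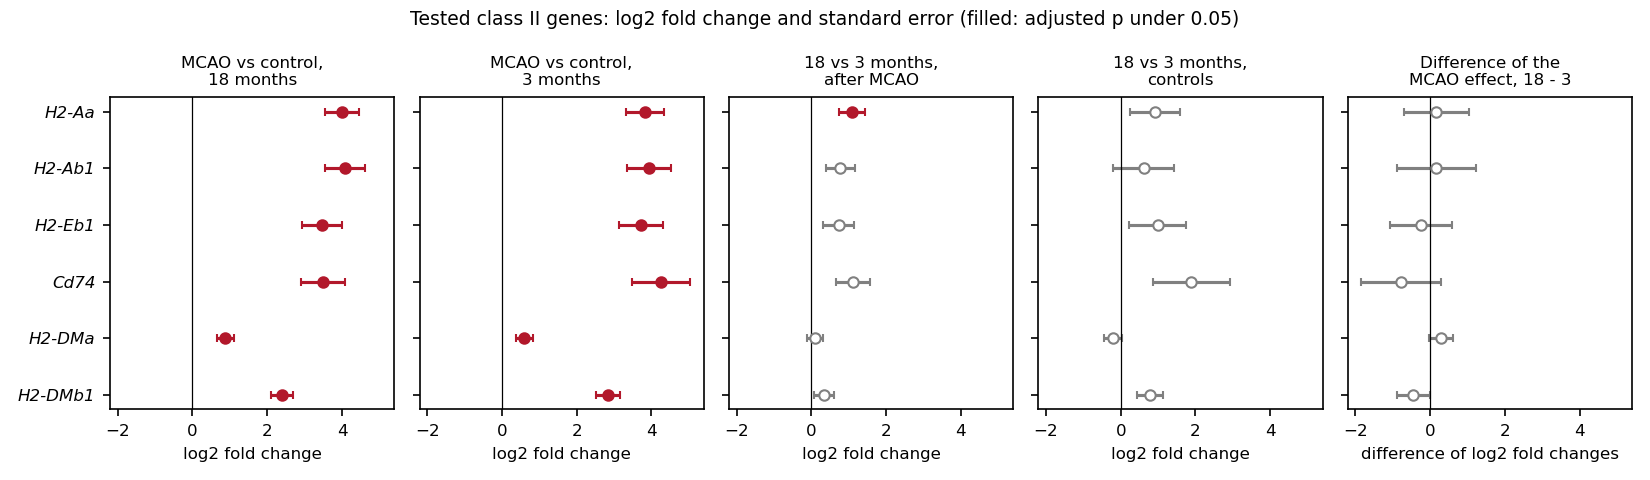
Log2 fold changes with standard errors of the 6 tested class II genes in the 5 comparisons, filled where the adjusted p is under 0.05. In both comparisons of MCAO with control all 6 are above 0, from 0.60 for H2-DMa to 4.26 for Cd74, whereas between ages only H2-Aa after MCAO (1.08) is filled.

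The scaling set how many genes of the whole table counted as higher or lower, though the direction of the 6 class II changes after MCAO was the same under each scaling. At 18 months 3462 genes were called higher and 3143 lower, against 4134 and 2145 with library totals and 2007 and 4119 with spike-ins. At 3 months the counts were 2930 and 2519, against 3722 and 1211 with totals and 1411 and 6178 with spike-ins. Relative to the main scaling, the median of all genes shifted by 0.11 and 0.13 with totals and by -0.29 and -0.45 with spike-ins at 18 and 3 months. Class II fold changes moved with this shift. With spike-ins H2-Aa stood at 3.72 at 18 months and 3.36 at 3 months.

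Between the ages after MCAO, the class II genes were higher at 18 months in the means, but the animals overlapped and 1 gene passed the test. H2-Aa averaged 20.5 ± 13.9 CPM at 18 months and 9.62 ± 4.42 CPM at 3 months (SD, n = 6 each), a log2 fold change of 1.08 ± 0.34 (edgeR adjusted p = 0.0426). Of all genes tested, 10.9% were called in this comparison, 6.4% higher and 4.51% lower. Libraries C, E and B of MCAO at 18 months lay above all libraries of MCAO at 3 months, and the other 3 lay among them. Cd74 averaged 7.76 ± 4.92 CPM at 18 months and 3.46 ± 2.44 CPM at 3 months (1.11 ± 0.45, adjusted p = 0.117). H2-Ab1 averaged 14.4 ± 7.09 and 8.13 ± 5.61 CPM at 18 and 3 months (0.78 ± 0.39, adjusted p = 0.21), and H2-Eb1 15.7 ± 10.6 and 9.30 ± 6.35 CPM (0.74 ± 0.42, adjusted p = 0.267). H2-DM differed least, with 43.4 ± 7.79 and 33.9 ± 20.4 CPM for H2-DMb1 (0.34 ± 0.27, adjusted p = 0.439) and 8.72 ± 1.97 and 8.21 ± 2.73 CPM for H2-DMa (0.09 ± 0.21, adjusted p = 0.83). Ciita averaged 0.907 CPM at 18 months and 0.58 CPM at 3 months (exact permutation p = 0.522, adjusted 0.696). For none of the 7 genes were the groups apart, as they were, with 18 months higher, for 2.51% of all genes tested.

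Single animals decided this comparison. Library C of MCAO at 18 months held the highest level of 6 of the 7 genes in its group and library A of MCAO at 3 months that of 6 in its own. Without library C the log2 fold change of H2-Aa was 0.67 (adjusted p = 0.198), and that of H2-Eb1 was 0.33. Without libraries C and E, an alternative chosen after the data were seen, H2-Aa stood at 0.41 (adjusted p = 0.536). Leaving out library A of MCAO at 3 months did the opposite. H2-Aa (1.25, adjusted p = 0.0258), H2-Ab1 (1.23, adjusted p = 0.0342), Cd74 (1.53, adjusted p = 0.0333) and H2-DMb1 (0.70, adjusted p = 0.0424) were then all called higher at 18 months. Over the 24 fits that left out 1 library each, the call of H2-Aa was lost in 8, with values of 0.67 to 1.25 and adjusted p of 0.0216 to 0.198.

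**Figure D3:**
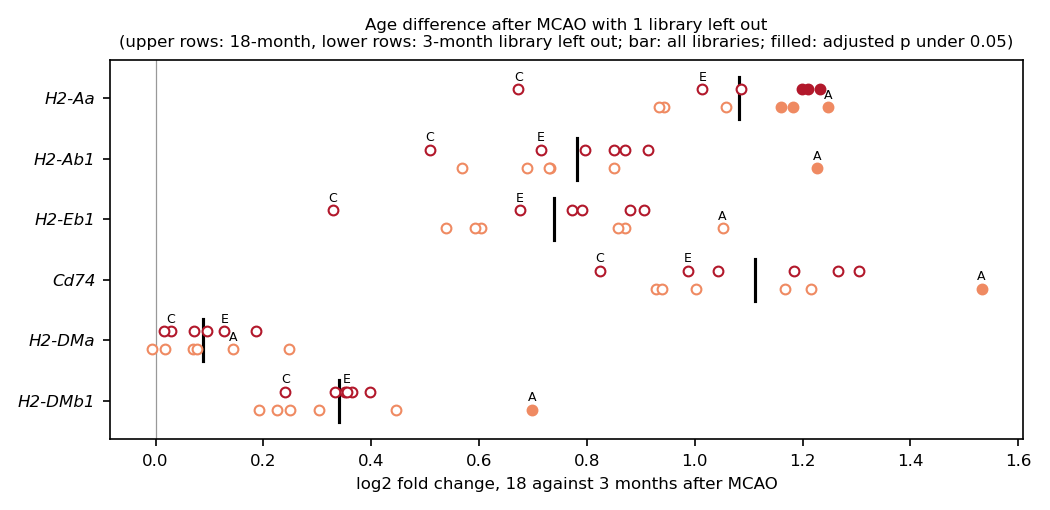
Log2 fold change of each tested class II gene between 18 and 3 months after MCAO when 1 MCAO library is left out, with the value from all libraries as a black bar and points filled where the adjusted p is under 0.05. H2-Aa runs from 0.67 without 18-month library C to 1.25 without 3-month library A, and the H2-DMa points lie around 0.

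In intact cortex no class II gene passed the test between the ages, where 0.603% of all genes tested did, 0.349% higher and 0.253% lower, and 0.925% had every older animal above every younger one. Means were nevertheless somewhat higher at 18 months for the antigen-presenting chains. H2-DMb1 came nearest, with 8.33 ± 2.84 CPM at 18 months and 4.76 ± 1.10 CPM at 3 months (edgeR, 0.79 ± 0.35 on the log2 scale, adjusted p = 0.46, unadjusted p = 0.0309), and 4 of the 6 older animals lay above all younger ones. Cd74 had 19 counts at 18 months and 5 at 3 months (1.89 ± 1.02, adjusted p = 0.637). H2-Eb1 stood at 0.99 ± 0.76, H2-Aa at 0.91 ± 0.66, H2-Ab1 at 0.61 ± 0.81 and H2-DMa at -0.20 ± 0.24 (adjusted p of 0.801 to 0.945). Ciita had 1 count at 18 months and 0 at 3 months (exact permutation p = 1). At so few counts the Cd74 difference stayed under 2 standard errors. DESeq2 also called 0 of the 6, and 1 had an unadjusted p under 0.05 with edgeR. Markers of phagocytic microglia did pass in the same libraries, 5 of 10 tested, among them Itgax (4.37 ± 0.97, adjusted p = 0.0294), Clec7a (4.58 ± 0.61, adjusted p = 0.000171) and Cst7 (5.06 ± 0.76, adjusted p = 0.000828).

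The change after MCAO was also compared between the ages directly, as an interaction term. None of the 6 tested genes was called, and none had an unadjusted p under 0.05. DESeq2 called 0 as well. Over all genes tested 0.0822% were called, 0.0411% with a larger and 0.0411% with a smaller value at 18 months. The difference of the log2 fold changes, 18 minus 3 months, was 0.17 ± 0.87 for H2-Aa, 0.17 ± 1.05 for H2-Ab1 and -0.25 ± 0.83 for H2-Eb1. It was -0.78 ± 1.06 for Cd74, 0.29 ± 0.32 for H2-DMa and -0.45 ± 0.44 for H2-DMb1 (adjusted p of 0.76 to 0.97). With errors this wide for the first 4, differences of 1 log2 unit in either direction could have been missed.

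Within a group the class II genes varied together from animal to animal. Over the 12 MCAO libraries, as deviations from their group means of log2 CPM, Cd74 and H2-Eb1 correlated most closely (Pearson r = 0.955), followed by H2-Aa with H2-Eb1 (0.894) and H2-Ab1 with H2-Eb1 (0.890). The loosest pair was H2-Ab1 with H2-DMa (0.565). These are descriptions across libraries that share their depth. The same animals stood at the ends. Library C was highest of MCAO at 18 months for H2-Aa, H2-Ab1, H2-Eb1, Cd74, H2-DMb1 and Ciita, and library E came next for the first 4. Library D was lowest for every gene but H2-DMb1. Among the 3-month MCAO animals, library A was highest for every gene but H2-DMa and library D lowest for every gene but Ciita. The proportions between genes still varied. The ratio of Cd74 to H2-Aa counts ran from 0.213 to 0.92 over the libraries of MCAO at 18 months and from 0.137 to 0.503 at 3 months.

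The genes most like the class II mean were searched among 11660 genes. Over all 24 libraries they were Piezo1, a mechanosensitive ion channel (r = 0.979), P4hb, protein disulfide isomerase (0.977), Fxyd5 (0.975), Slc15a3, an endosomal peptide transporter (0.974), and Tspan4 (0.973). Mapkapk2, Tagln2, Anp32b, Enpp1 and Ifitm3 followed, down to 0.970. These values include the gap between MCAO and control. Within the 12 MCAO libraries, as deviations from group means, P4hb (0.966), Piezo1 (0.964), Rbm14 (0.958), Irf1 (0.955) and Enpp1 (0.952) led, and Sipa1, Ssr2, Bicc1, Klhdc10 and Exoc3l4 followed, down to 0.938. Without the libraries farthest from their group mean, C of MCAO at 18 months and A of MCAO at 3 months, those 10 values were 0.893 to 0.946.

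Irf1, the interferon-induced factor that acts on the Ciita promoter, was thus both among the most similar genes and a member of the pathway. It had 45.7 to 112 CPM after MCAO at 18 months, highest in library C and lowest in library D, and 27.9 to 63.1 CPM after MCAO at 3 months, highest in library A. It rose by 1.86 ± 0.20 after MCAO at 18 months (edgeR adjusted p = 1.92e-08) and by 1.23 ± 0.20 at 3 months (adjusted p = 1.98e-05), and was higher at 18 than at 3 months after MCAO (0.75 ± 0.19, adjusted p = 0.0113).

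**Figure D4:**
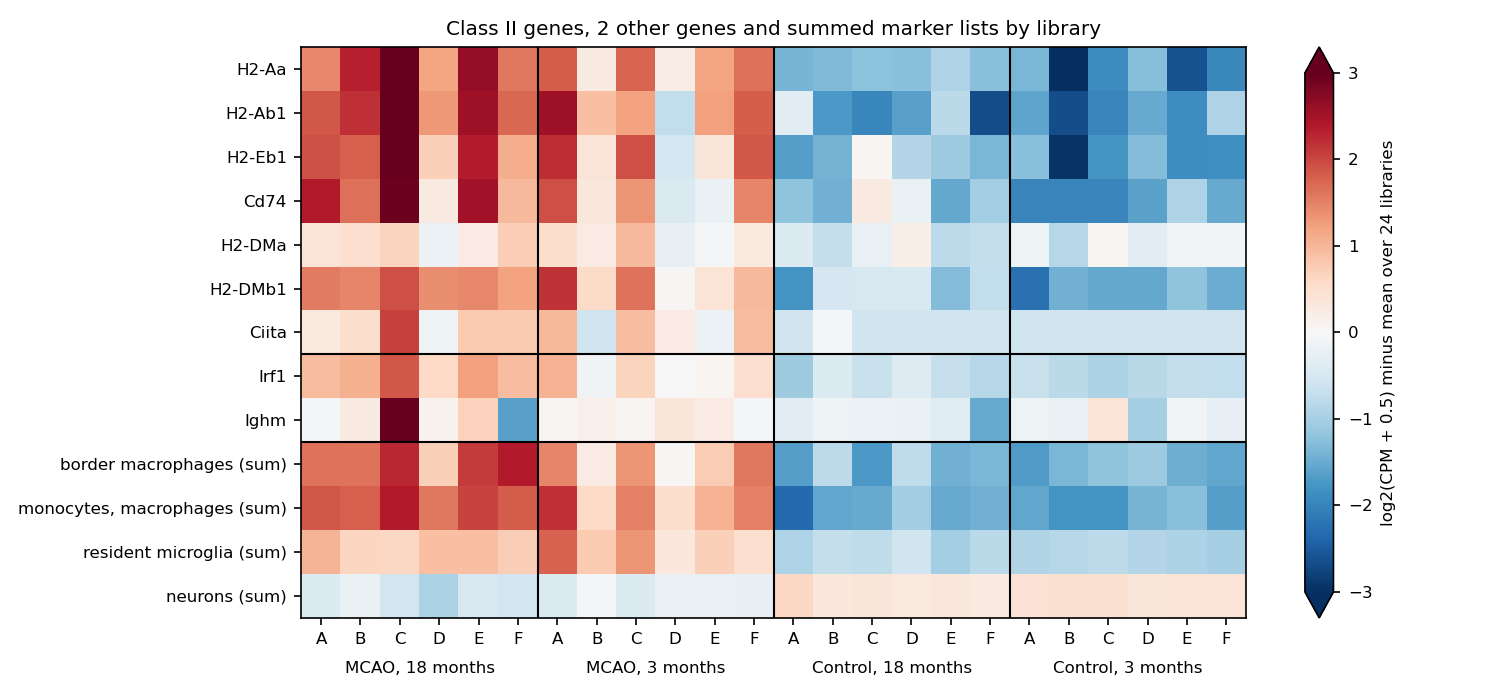
Log2(CPM + 0.5) of the 7 class II genes, Irf1, Ighm and 4 summed marker lists in each library, minus the row's mean over 24 libraries; the colour scale stops at -3 and 3. Most class II genes and the monocyte list are highest in 18-month MCAO library C and 3-month MCAO library A, while Ighm stands out in 18-month library C (338 CPM). The monocyte sum is mostly Fn1.

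Among the 10 tested factors that bind or drive class II promoters, 4 rose and 1 fell after MCAO at 18 months. At 3 months 3 rose and 1 fell. Of all genes tested, 23.7% rose and 21.5% fell at 18 months, and 20.1% rose and 17.3% fell at 3 months. The counts of this list and of those below are to be read beside these shares. Spi1, Irf8 and Irf1 rose at both ages. Spi1, the myeloid factor PU.1, rose by 2.91 ± 0.34 at 18 months and 3.22 ± 0.35 at 3 months, and Irf8, a factor of microglia and monocytes, by 2.49 ± 0.19 and 2.68 ± 0.20. The RFX subunits, which bind the X box, moved little. Rfx5 stood at -0.11 ± 0.14 and -0.10 ± 0.14 at 18 and 3 months, Rfxap at -0.34 ± 0.16 and -0.07 ± 0.16 and Rfxank at 0.28 ± 0.23 and -0.03 ± 0.23, and none of these passed the test. Nfya rose at 18 months (0.77 ± 0.28, adjusted p = 0.0271) and stood at 0.17 ± 0.29 at 3 months, and Nfyb, another NF-Y subunit, fell by 0.34 ± 0.08 at 18 months and by 0.24 ± 0.08 at 3 months. The median of the list was 0.17 and 0.07, beside -0.03 and -0.04 over all genes.

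The cytokine interferon gamma, encoded by Ifng, had no count in any library, which allows at most 0.0225 CPM over all 24. The receptor chain Ifngr1 rose by 1.54 ± 0.17 and 1.43 ± 0.17 at 18 and 3 months. The other chain Ifngr2 rose at 18 months (0.59 ± 0.12) and stood at 0.06 ± 0.12 at 3 months, and the feedback inhibitor Socs1 rose at 18 months (1.18 ± 0.36) and stood at 0.55 ± 0.38 at 3 months. The kinase Jak1 stood at 0.12 ± 0.08 at 18 months and rose at 3 months (0.24 ± 0.08). The differences between ages of these 3 genes were not called in the interaction.

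The enzymes that make class II peptides rose broadly, with 8 of 10 tested genes of processing and turnover higher at 18 months and 7 at 3 months. Ifi30, the thiol reductase GILT that unfolds antigen in lysosomes, rose by 5.03 ± 0.32 at 18 months and 4.23 ± 0.32 at 3 months. Ctss, the protease that trims the invariant chain, rose by 2.80 ± 0.19 and 2.53 ± 0.19, and Ctsl by 2.20 ± 0.10 and 1.67 ± 0.10. Ctsd rose by 2.81 ± 0.30 and 3.07 ± 0.31, Lgmn, the asparagine endopeptidase, by 2.5 ± 0.28 and 1.44 ± 0.27, and Ctsb by 1.85 ± 0.14 and 1.39 ± 0.14. Sppl2a, the membrane protease that clears the invariant chain stub, rose by 0.66 ± 0.15 and 0.40 ± 0.16. March8, a ubiquitin ligase, rose at 18 months (0.37 ± 0.12) and stood at 0.21 ± 0.12 at 3 months (adjusted p = 0.164). The medians were 2.02 and 1.42 at 18 and 3 months. After MCAO, Lgmn (1.18 ± 0.27), Ctss (1.02 ± 0.18), Ifi30 (0.84 ± 0.23), Ctsl (0.74 ± 0.10) and Ctsb (0.60 ± 0.13) were higher at 18 than at 3 months (adjusted p of 2.07e-05 to 0.0169). In 3-month MCAO libraries A and C, however, Lgmn had 41.8 and 110 CPM, against 218 to 261 CPM in the others of that group. Ctsd stood apart in the other direction there, with 7560 and 5633 CPM, against 1494 to 2551 CPM. Fold changes without both libraries are not given for these genes.

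Co-stimulatory molecules give a T cell its second signal. All 4 that were tested rose at 18 months and 3 rose at 3 months. Cd40 rose by 2.47 ± 0.37 and 1.83 ± 0.37 at 18 and 3 months, Cd86 by 1.93 ± 0.27 and 1.82 ± 0.29, and Icosl by 1.88 ± 0.36 and 2.03 ± 0.39. Cd274, the inhibitory ligand PD-L1, rose at 18 months (2.12 ± 0.50, adjusted p = 0.0011) and stood at 0.90 ± 0.57 at 3 months (adjusted p = 0.228). It was higher at 18 than at 3 months after MCAO (1.92 ± 0.48, adjusted p = 0.0118), but the interaction was 1.22 ± 0.77 (adjusted p = 0.604). At 3 months after MCAO libraries A and C stood apart with 0.624 and 0.706 CPM of Cd274, against 5.69 to 6.33 CPM in the other 4. Without both, a choice made after the data were seen, Cd274 rose at 3 months (1.45 ± 0.48, adjusted p = 0.0238) and the age difference after MCAO was 1.37 ± 0.41 (adjusted p = 0.0268). Cd80 was too low to be tested, with 53 counts in the 18-month MCAO libraries, against 12 in their controls, and 25 in the 3-month MCAO libraries, against 3 in theirs.

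Cd74 at the cell surface is also the receptor of the cytokine MIF, with Cd44 and Cxcr4 as partners. The partners rose, Cxcr4 by 4.29 ± 0.33 and 3.91 ± 0.37 at 18 and 3 months and Cd44 by 4.07 ± 0.25 and 3.84 ± 0.26. The ligands did not pass the test at either age, with Mif at -0.05 ± 0.16 and 0.11 ± 0.16 and its relative Ddt at -0.23 ± 0.11 and 0.11 ± 0.11. Cxcr4 (1.46 ± 0.26, adjusted p = 0.00071) and Cd44 (0.80 ± 0.20, adjusted p = 0.0105) were higher at 18 than at 3 months after MCAO. In controls no gene of these 5 pathway lists was called between the ages, and none in the interaction.

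**Figure D5:**
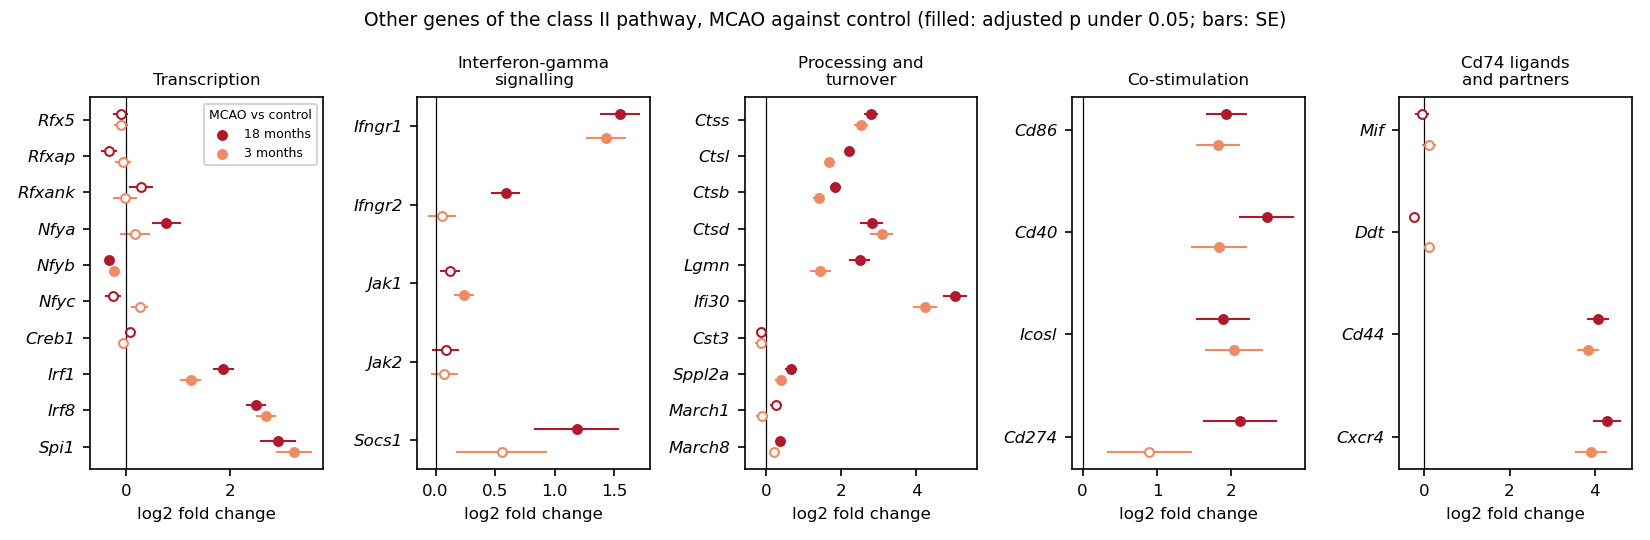
Log2 fold changes with standard errors of tested genes in 5 class II pathway lists, MCAO against control at 18 months (red) and at 3 months (orange), filled where the adjusted p is under 0.05. The RFX and NF-Y subunits lie between -0.34 and 0.77, whereas Spi1, Ctss, Ifi30, Cd44 and Cxcr4 lie above 2.5 at both ages.

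The other class II genes were too low for the filter. H2-Ob and H2-Oa encode H2-DO, an inhibitor of H2-DM known from B cells. H2-Ob had 81 counts in the 18-month MCAO libraries, against 14 in their controls (4.31-fold on pooled counts, 95% counting interval 2.43 to 8.23), and 30 in the 3-month MCAO libraries, against 10 in theirs (2.36-fold, 1.12 to 5.42). H2-Oa had 23 counts in the 18-month MCAO libraries, against 14 in their controls (1.22-fold, 0.603 to 2.57), and 28 in the 3-month MCAO libraries, against 2 in theirs (11-fold, 2.78 to 95.5). H2-DMb2 is the near-identical copy of H2-DMb1. It had 92 counts in the 18-month MCAO libraries, against 14 in their controls (4.89-fold, 2.77 to 9.30), and 37 in the 3-month MCAO libraries, against 9 in theirs (3.24-fold, 1.53 to 7.63). H2-Eb2 had 7 and 1 counts after MCAO at 18 and 3 months and none in controls. These intervals cover counting error only, not the spread between animals.

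Markers of cells that carry class II also rose after MCAO. All 6 tested of 8 border macrophage markers rose at both ages, with Mrc1 at 2.29 ± 0.33 and 1.39 ± 0.33 and Cd163 at 2.10 ± 0.44 and 1.46 ± 0.44 at 18 and 3 months. Their sum was 50.1 to 161 CPM after MCAO at 18 months and 31.0 to 92.8 CPM after MCAO at 3 months. In controls of 18 and 3 months it was 8.87 to 17.8 and 9.02 to 14.0 CPM. After MCAO it was highest in library F and lowest in D at both ages. Summed class II was instead highest in C at 18 months and in A at 3 months. All 7 tested of 9 markers of monocytes and infiltrating macrophages rose, with Ccr2 at 5.5 ± 0.64 and 5.26 ± 0.68 and Plac8 at 5.91 ± 0.51 and 4.42 ± 0.69. Their sum was 437 to 759 and 210 to 669 CPM after MCAO at 18 and 3 months, against 28.4 to 70.9 and 41.9 to 60.6 CPM in controls. It was highest in library C and lowest in D at 18 months, and highest in A and lowest in D at 3 months. These were the same animals as for the summed class II genes. Most of the sum was Fn1, however, with 552 of 759 CPM in 18-month library C and 588 of 669 CPM in 3-month library A. Ccr2 and Plac8 were highest in C at 18 months. At 3 months they were highest in F (45.4 and 14.2 CPM), against 12.3 and 1.17 CPM in A. The order of the sum was not particular to these cells. The list of class II promoter factors had the same highest and lowest libraries. Summed endothelial markers were also highest in C at 18 months (703 CPM) and A at 3 months (458 CPM), and lowest in A and D. All 9 resident microglia markers rose as well, Tmem119 by 1.44 ± 0.26 and 1.63 ± 0.27. Their sum was 841 to 1115 CPM after MCAO at 18 months and 686 to 1872 CPM after MCAO at 3 months, against 270 to 362 and 277 to 319 CPM in controls. At 18 months it was lowest in library C, where class II was highest, and at 3 months it was highest in library A and lowest in D, as class II was. The part of these cells in the class II change was not tested.

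Several defining markers of dendritic and T cells had few counts, while others were measured well. Of 10 dendritic cell markers 5 were tested. After MCAO 2 of these rose and 1 fell at 18 months, and 3 rose and 2 fell at 3 months. They summed to 44.8 to 91.2 and 22.8 to 76.6 CPM after MCAO at 18 and 3 months, against 39.8 to 50.7 and 39.8 to 52.8 CPM in controls. This sum too was highest in library C and lowest in D at 18 months, and highest in A and lowest in D at 3 months. The defining Clec9a had 8 counts after MCAO at 18 months and none elsewhere. Xcr1 had 4 and 11 counts after MCAO at 18 and 3 months, against 0 and 1 in controls. Itgax, an integrin that microglia also express, rose by 2.19 ± 0.50 and 5.64 ± 0.85 at 18 and 3 months, and the lectin Clec10a by 1.04 ± 0.37 and 1.00 ± 0.37. Batf3 stood at -0.20 ± 0.31 at 18 months and rose at 3 months (0.87 ± 0.33). Zbtb46, which had 23.6 to 40.6 CPM in controls, stood at 0.12 ± 0.18 at 18 months and fell by 0.45 ± 0.18 at 3 months. Flt3 fell by 0.95 ± 0.32 and 1.05 ± 0.34 at 18 and 3 months, but libraries A and C were its lowest at 3 months, and without both the second value was -0.52 ± 0.25 (adjusted p = 0.109). Ccr7, of migrating dendritic cells, had 29 and 13 counts after MCAO at 18 and 3 months and 1 in each control group. The T cell genes Cd3e and Cd3d had 3 and 17 counts after MCAO at 18 months and 7 and 6 after MCAO at 3 months, with at most 2 in any control group. The 10 T cell genes summed to 6.5 to 23.8 and 12.0 to 29.0 CPM after MCAO at 18 and 3 months. In controls they summed to 21.0 to 30.1 and 27.0 to 42.5 CPM. Most of this was Trbc2, the only 1 tested, which fell by 1.18 ± 0.31 and 1.00 ± 0.30. The sum does not describe the others. In counts not scaled for depth, Trac had 20 and 24 after MCAO at 18 and 3 months, against 4 and 5 in controls. Lck had 70 and 69, against 26 and 22, and Cd4 26 and 39, against 10 and 15. Cd8a had 15 and 1, against 1 and 0, and Cd2 10 and 7, against 0 and 3. Lag3 had 3 and 2, against 2 and 1, and Cd3g 0 and 1, against 2 and 0.

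The B cell gene Ighm set 1 library apart. It encodes the heavy chain of IgM and had 338 CPM in library C of MCAO at 18 months and 7.47 to 38.9 CPM in the other MCAO libraries. Of the 8 B cell markers 2 were tested, and after MCAO 2 rose at 18 months and 1 at 3 months. Together the 8 summed to 27.1, 36.8 and 354 CPM (lowest, median and highest) after MCAO at 18 months and 34.4, 36.6 and 39.2 CPM after MCAO at 3 months, against 13.9, 24.6 and 27.6 CPM in controls of 18 months and 15.8, 26.4 and 34.4 CPM in controls of 3 months. Of the 354 CPM in library C, 338 CPM were Ighm, so that sum does not describe the other markers. The defining markers Cd79a and Ms4a1 had 0.291 and 0.872 CPM in library C, and Pax5, Cd79b and Fcmr had 1.6, 1.31 and 1.02 CPM there. Library C was the highest of all 24 for Cd79a, Pax5, Cd79b, Fcmr and Ighm, while Ms4a1 and Ebf1 were higher in 18-month MCAO libraries E and F. That animal is also the one with the most H2-Aa, H2-Ab1, H2-Eb1, Cd74 and Ciita. Without it, MCAO against control at 18 months gave log2 fold changes of 3.59 for H2-Aa, 3.82 for H2-Ab1, 3.06 for H2-Eb1 and 3.19 for Cd74, and all 6 tested genes were still called higher. The part of these cells in the class II levels was not tested.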

How the data were processed

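Per the submitters' processing notes, reads were trimmed with Trimmomatic, counted per gene with HTSeq and handled with DESeq2, on the mouse build GRCm38; for versions, aligner, annotation and strand setting: not given in the sources used here. The authors deposited raw counts per gene for each library, which were used here, and a normalized version, which was not. The files list 46983 genes, 92 ERCC spike-ins and 5 summary lines; only genes entered library sizes and tests. Reads outside genes made up 25.7% to 34.5% of a library. Symbols were matched for 46488 identifiers, ignoring the version suffix, and positions come from GENCODE M21.

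All 24 libraries entered 1 model of 4 group means in edgeR 4.0.16 (R 4.3.3, limma 3.58.1), with TMM scaling, edgeR's default filter (minimum 10 counts), robust dispersions and the two-sided quasi-likelihood F test. It tested 14599 genes and left 32384 out. The threshold was a Benjamini-Hochberg adjusted p of 0.05 over all genes tested. Standard errors follow log2 fold changes after ±. They are approximate, being the absolute log2 fold change divided by the square root of its F statistic. Every adjusted p in the report is from this model unless another test is named. Ciita, below the filter, was compared by exact permutation of its CPM. CPM use TMM-scaled library sizes. Pooled ratios have 95% exact intervals. Similarity used log2 CPM with a prior count of 2. The code was tested on simulated data.

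Genes were named by rule: the 7 members, pathway genes past the threshold or without any count, the first markers of the cell lists described, and the 10 most similar genes averaging at least 5 CPM in a group; other genes in the text were chosen after their values were seen. Some genes of these lists are not reported here. The members and lists were chosen with earlier results of these data known. Each of the 60 library pairs within groups differed beyond sampling noise (chi-square per degree of freedom 3.38 to 76.1). Letters A to F name animals and are not stated to pair them, and 36 same-letter pairs correlated at -0.296 to 0.307. Alternatives were DESeq2 1.42.0, scaling by totals or spike-ins, no filter, the letter as a block, only the compared groups, and libraries left out.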

Additional observations from a re-analysis of the deposited data

Results flagged for a closer look

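For each class II gene and group the highest or lowest of the 6 libraries was set against its nearest neighbour. In 5 of 28 such sets the gap exceeded 0.625 of the group's range. Normally distributed values exceed this cutoff in about 1 in 20 sets, but many of these sets hold few counts. Ciita in the 3-month controls, at 0 throughout, could not be flagged. In the 18-month controls its single count made the gap the whole range. The share flagged can therefore not be set against that rate. Ciita stood at 2.62 CPM (18 counts) in library C of MCAO at 18 months, against 0.191 to 0.812 CPM in the other 5. H2-Aa had 1.66 CPM in library E of the 18-month controls, against 1.08 to 1.27 CPM in the others. H2-Eb1 had 3.48 CPM in library C of the 18-month controls, against 0.719 to 1.57 CPM. Cd74 had 0.541 CPM in library E of the 3-month controls, against 0 to 0.191 CPM. Ciita had its only count among controls in library B of the 18-month controls, which gave 0.231 CPM. The control values rest on 1 to 11 counts.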

How the results depend on the processing

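Under every alternative run, the 6 tested class II genes had positive log2 fold changes for MCAO against control at both ages, and H2-DMa alone lost calls. It lost them with spike-in scaling at both ages, without 3-month MCAO libraries A and C (0.30, adjusted p = 0.338) or C with control D (0.41, 0.203), and at 18 months without MCAO libraries C, E and F (0.72, 0.0547). Leaving out 18-month libraries C and E was chosen after the data were seen. Between ages after MCAO, the H2-Aa call was lost with no filter (1.05, adjusted p = 0.0922), with only the compared groups (1.05, 0.155), and without 18-month libraries C and E (0.41, 0.536) or C, E and F (0.44, 0.593), each leaving 0 class II genes called. Without 3-month A and C 4 were called. The letters are not stated to pair animals. Of 36 same-letter pairs 9 correlated over 0.1, and 7 of 24 libraries correlated best with their own letter. Such correlations cannot exclude a pairing. A replicate block by letter called 6671, 5554, 1744, 98 and 16 genes for MCAO at 18 months, MCAO at 3 months, age after MCAO, age in controls and the interaction, with the same class II calls.

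The counts of genes called moved by over 1.5 times in the age comparisons. In controls 177 were called by DESeq2, 39 with spike-in scaling (33 higher and 6 lower), 246 with only the compared groups and 184 without 3-month MCAO A and C, against 88. After MCAO 671 were called with spike-ins (646 higher and 25 lower), 601 with only the compared groups, 1054 without 3-month MCAO C and control D, 500 without 18-month C and E and 301 without C, E and F, against 1593. For the interaction DESeq2 called 117 and spike-in scaling 3; without 3-month MCAO A and C 138 were called, without 3-month MCAO C and control D 1, without 18-month C and E 1 and without C, E and F 3, against 12. With 1 library left out the counts were 51 to 138 in controls, 952 to 1795 after MCAO and 1 to 68 for the interaction, with 0 to 4 class II genes called after MCAO. The cause was not tested.

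Sign changes concerned values that were never past the threshold. The interaction of H2-Eb1 and H2-DMb1 was 0.40 and 0.21 without 3-month MCAO A and C. That of H2-Aa was -0.068 without 3-month MCAO C and control D, and those of H2-Aa and H2-Ab1 were -0.50 and -0.30 without 18-month C and E and -0.48 and -0.29 without C, E and F. H2-DMa between ages after MCAO was -0.088 without C, E and F. With 1 library left out the interaction ran from -0.24 to 0.38 for H2-Aa, -0.21 to 0.69 for H2-Ab1 and -0.66 to 0.087 for H2-Eb1, and H2-DMa between ages after MCAO from -0.0072 to 0.25. Control levels of H2-Aa, H2-Ab1, H2-Eb1, Cd74 and Ciita rest on at most 11 counts a library, which limits every ratio against controls.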
